A study of Rattus norvegicus with 8 samples.

Results

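The amino acid transporter families Slc1, Slc3, Slc6, Slc7, Slc36, Slc38 and Slc43 were followed in rat ovaries exposed to dihydrotestosterone. The members were all genes whose symbol on the array begins with the name of one of these 7 families, taken from probe sets that carry a single symbol, and there were 53 of them among the 14217 genes measured in this way. They were read by 72 probe sets, and for 12 members with several probe sets the one with the highest mean over the arrays of single animals stands for the gene. The Slc6 family gave 16 members, Slc7 15, Slc38 9, Slc1 6, Slc36 3, and Slc3 and Slc43 2 each. Slc7a6os was taken in by its letters alone, as it is the opposite-strand neighbour of Slc7a6 and no carrier, so 52 of the members are carriers. The reference gene names list 63 protein-coding genes of these families, of which those 52 were measured here.

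The samples were ovaries of female Sprague-Dawley rats, in which DHT, an androgen that cannot be converted to estrogen, was given by an implant as a model of polycystic ovary syndrome. Animals of the DHT group carried a capsule that released 83 µg DHT per day for 12 weeks, and animals of the CTL group carried an empty capsule. Tissue of the ovarian cortex was taken at 15 weeks of age. Each group had 3 arrays of single animals and 1 array of the pooled RNA of the same 3 animals, called the pooled array, which was not counted as an animal.

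Amino acids cannot cross the cell membrane unaided, and cells take them up, exchange them or release them through solute carriers. Slc1 carriers move glutamate or small neutral amino acids with sodium, Slc6 carriers move taurine, glycine, creatine, proline and transmitters with sodium and chloride, and Slc38 carriers move glutamine, alanine and other neutral amino acids. Most Slc7 carriers of large neutral, cystine or dibasic amino acids reach the membrane only when paired with a heavy chain of the Slc3 family, and Slc36 carriers move small amino acids with protons, in part out of lysosomes. In the ovary, granulosa cells and the cumulus cells derived from them pass amino acids on to the oocyte.

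Expression values were log2 levels after GCRMA, a method that corrects each probe for background by its base composition and gives 1 value per probe set. A level is meaningful only within a probe set, so no result ranks the levels of different genes. Brightness within a family was used to choose members to name. The summed level of a gene list, the log2 of its added linear levels, follows its brightest probe sets. A gene was taken as near background on an array when it did not exceed the 95th percentile of the 28 olfactory, vomeronasal and taste receptor probe sets, which was 2.62 to 3.05 on the 6 arrays of single animals. The CTL 3 array stood apart, with a median level of 3.25 against 2.97 to 3.03 on the others. The log2 difference between the 3' and the 5' control probe set of Gapdh, which grows when labelled RNA is short at its 5' end, was 2.99 to 3.98 in the DHT animals, 0.39 in CTL 1, 0.62 in CTL 2 and 3.49 in CTL 3. The leading members are therefore also given against CTL 3 alone and against CTL 1 and CTL 2.

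The 250 bases upstream of the start site are shown for the called members and for those at least 2-fold higher in the group means, where the RefSeq table held them. They are on build GRCr8, 5′ to 3′ on the strand of the gene, and capitals mark the motif matches described after them. The windows are chr4:125752252-125752501 on the plus strand for Slc6a6 and, on the minus strand, chr2:59557809-59558058 for Slc1a3, chr19:66872413-66872662 for Slc7a5, chr15:32212716-32212965 for Slc7a8 and chr7:129742620-129742869 for Slc38a2. For Slc1a3 the table lists 3 starts, and the window is that of the first listed.
Slc6a6: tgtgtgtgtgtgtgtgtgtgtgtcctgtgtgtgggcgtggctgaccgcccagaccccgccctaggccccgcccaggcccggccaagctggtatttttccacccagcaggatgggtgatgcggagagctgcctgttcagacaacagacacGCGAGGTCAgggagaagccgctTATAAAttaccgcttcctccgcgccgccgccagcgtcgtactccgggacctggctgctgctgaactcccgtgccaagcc
Slc1a3: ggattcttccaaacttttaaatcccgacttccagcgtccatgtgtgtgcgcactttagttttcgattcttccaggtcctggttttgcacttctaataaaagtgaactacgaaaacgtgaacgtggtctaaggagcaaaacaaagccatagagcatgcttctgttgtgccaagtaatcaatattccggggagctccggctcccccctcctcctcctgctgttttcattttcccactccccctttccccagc
Slc7a5: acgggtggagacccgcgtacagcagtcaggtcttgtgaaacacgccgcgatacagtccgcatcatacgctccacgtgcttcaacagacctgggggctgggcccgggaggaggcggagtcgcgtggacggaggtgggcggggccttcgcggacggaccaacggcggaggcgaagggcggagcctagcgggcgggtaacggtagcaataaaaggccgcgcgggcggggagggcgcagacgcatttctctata
Slc7a8: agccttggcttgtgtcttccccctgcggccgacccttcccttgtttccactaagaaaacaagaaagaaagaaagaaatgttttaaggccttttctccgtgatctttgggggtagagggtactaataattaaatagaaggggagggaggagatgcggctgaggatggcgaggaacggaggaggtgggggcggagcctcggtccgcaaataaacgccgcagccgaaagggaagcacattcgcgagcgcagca
Slc38a2: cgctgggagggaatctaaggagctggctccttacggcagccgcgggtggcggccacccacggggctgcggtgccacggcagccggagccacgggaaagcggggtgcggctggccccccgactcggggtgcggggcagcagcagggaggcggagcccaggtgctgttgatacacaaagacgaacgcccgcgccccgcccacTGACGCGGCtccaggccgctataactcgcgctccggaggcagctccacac

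Of the 53 members 41 had such a window. The full androgen receptor element, AGAACA followed by 3 bases and its own reverse complement, searched on both strands, was in 0 of the 41 and in 0.00364% of all 27457 windows, and the shorter AGAACA that lies within it was in 5 of the 41, none of them shown, against 17.1% of all. The ATF4-type element TGATGNAA was in 3 of the 41, the windows of Slc38a1, Slc7a1 and Slc1a4, against 3.27% of all. The NRF2-type element TGACNNNGC was in 7 of the 41 against 10.2% of all, and the capitals GCGAGGTCA of Slc6a6 (its reverse complement, 101 bases before the start) and TGACGCGGC of Slc38a2 (50 bases before the start) are such matches. The TATA-type TATAAA, searched on the gene's strand, was in 5 of the 41 against 8.38% of all, and Slc6a6 held it 79 bases before the start. These are matches of letters and not binding sites.

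In the comparison of DHT with CTL, 1 member was called lower, the taurine carrier Slc6a6, and 1 was called higher, the glutamate carrier Slc1a3. A call by limma needed at least a 2-fold change at p of 0.01 or below with the false discovery rate held at 10%. Over all 31042 probe sets 0.351% were called lower and 0.68% higher, 1.03% in either direction. The group means differed at least 2-fold for 2 members that were lower, Slc6a6 and Slc7a4, and for 4 that were higher, Slc1a3, Slc7a5, Slc7a8 and Slc38a2, against 2.74% and 3.12% of all probe sets. The DHT and CTL animals did not overlap in 3 members that were lower in DHT and 7 that were higher, against 6.85% and 10.6% of all probe sets. Members stand at their brightest probe set, and of all 14217 genes taken so, 968 did not overlap lower and 2039 higher. Of these 14217 genes the group means were at least 2-fold lower in 414 and higher in 597. The median log2 fold change of the members was -0.025, beside -0.029 for all probe sets. As this is bulk tissue, fewer cells of a type and less RNA per cell cannot be told apart.

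**Figure D1:**
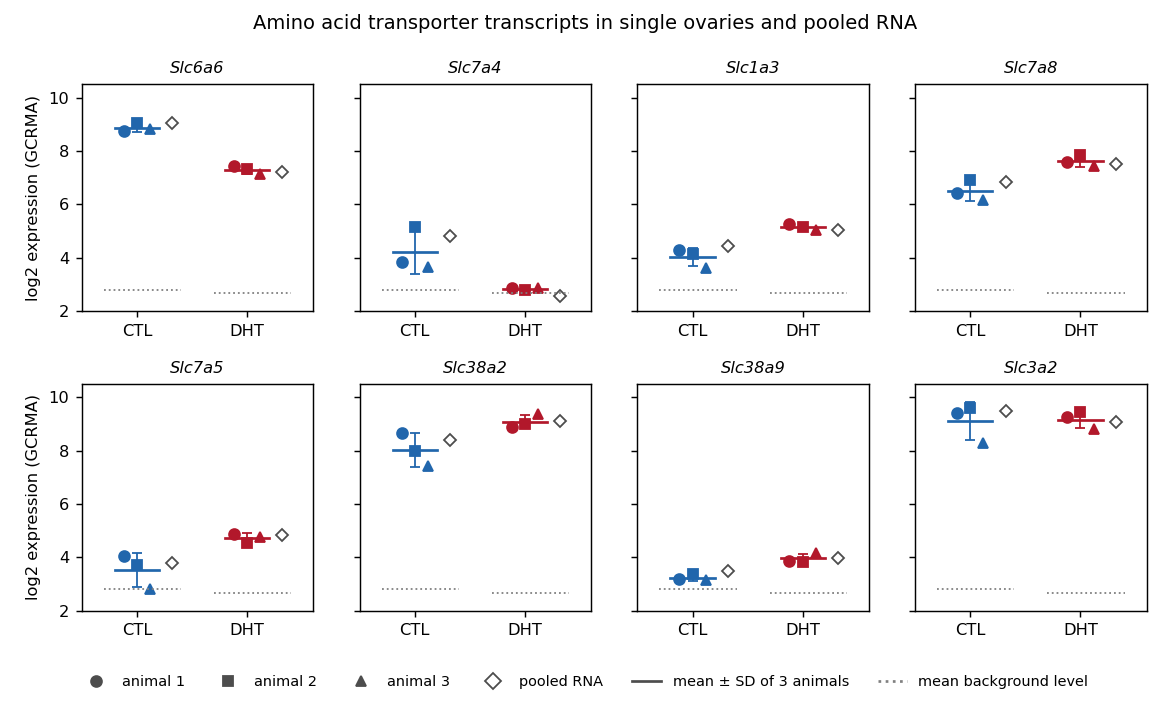
Log2 expression (GCRMA) of 8 members in each CTL (blue) and DHT (red) animal, with bars for the mean ± SD of 3 animals, open diamonds for the pooled arrays and dotted lines for the mean background level of the 3 animals. The groups are apart for all genes shown but Slc3a2, whose CTL 3 value of 8.30 lies below the other 5 animals.

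Slc6a6 carries taurine, a sulfur amino acid that cells hold as an osmolyte, and it was the member with the smallest p. Its log2 level was 7.42, 7.31 and 7.13 in the DHT animals and 8.74, 9.04 and 8.82 in the CTL animals, with 7.20 and 9.04 on the pooled arrays. All DHT animals were lower than all CTL animals, and the animals of a group lay close together. The difference was -1.58 on the log2 scale (SE 0.12, n = 3 per group), a 2.98-fold lower level, with an adjusted p of 0.0402 by limma. Against CTL 3 alone the difference was -1.53 and against CTL 1 and CTL 2 it was -1.60. At the probe set that stands for the gene its size was thus alike with CTL 3 and without it. With the Gapdh difference as a covariate the log2 difference was -1.52 (SE 0.17, adjusted p 0.0157, limma), in a fit that called 3747 probe sets in all. The unadjusted p of Slc6a6 by limma was 0.00094 in that fit and 3.48e-05 without the covariate. Among the controls only CTL 3 had a Gapdh difference in the range of the DHT animals. The fit with the covariate therefore leans on CTL 3 and is no separate check.

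A further probe set of Slc6a6 read 4.39, 4.57 and 4.24 in the DHT animals and 6.85, 6.78 and 5.49 in the CTL animals. It too was lower in all DHT animals, by a log2 difference of -1.97 (SE 0.40), although its adjusted p of 0.131 by limma missed the threshold. Here the size moved with the control animals, at -1.08 against CTL 3 and -2.41 against CTL 1 and CTL 2. The call of Slc6a6 was lost when any of the DHT animals was left out, with an adjusted p of 0.155 to 0.254 by limma, while the log2 difference stayed at -1.64 to -1.50. It was also lost with the replicate number as a block (adjusted p 0.170, limma), with quantile normalization (0.157) and with a mean-variance trend (0.126).

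Among the enzymes that make taurine and creatine, substrates of Slc6a6 and Slc6a8, Cdo1 opens the route from cysteine to taurine. Its log2 level was 3.87, 3.86 and 3.77 in DHT and 3.32, 3.35 and 3.22 in CTL, a difference of 0.54 (SE 0.068, adjusted p 0.0629, limma). It passed the false discovery rate but not the 2-fold limit, and it was higher in DHT where Slc6a6 was lower. Csad, the next enzyme of that route, read 6.25, 6.41 and 6.44 in DHT and 5.86, 6.47 and 4.97 in CTL, where the groups overlapped and the adjusted p was 0.716 by limma.

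Of the other Slc6 members none was called. Slc6a8, the creatine carrier, read 4.87, 4.74 and 4.65 in DHT and 5.70, 5.21 and 4.50 in CTL, a log2 difference of -0.38 with a 95% interval of -1.19 to 0.42, and CTL 3 lay below all DHT animals. Slc6a9, a glycine carrier, differed by 0.034 (interval -0.33 to 0.40). Slc6a7, the proline carrier, was near background in all 3 DHT animals and read 3.32, 3.56 and 2.79 in CTL, with an adjusted p of 0.361 by limma. It did not overlap, but its CTL 3 value was itself near background, so no fold is given. Slc6a14, a carrier of neutral and cationic amino acids, read 2.84 to 2.99 on 5 arrays and 3.93 on CTL 3. Slc6a15, a carrier of branched-chain amino acids and proline, likewise read 2.57 to 2.65 on 5 arrays and 3.13 on CTL 3, and it was near background in all DHT animals and in 2 CTL animals.

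Slc1a3 takes up glutamate and aspartate and is best known from glia. Its log2 level was 5.26, 5.16 and 5.06 in the DHT animals, 4.29, 4.15 and 3.63 in the CTL animals, and 5.04 and 4.45 on the pooled arrays. The groups did not overlap, and CTL 3 was the lowest of the 6. Slc1a3 rose by 1.13 on the log2 scale (SE 0.19, n = 3 per group), a 2.19-fold higher level with an adjusted p of 0.0944 by limma. Against CTL 3 the difference was 1.53, and against CTL 1 and CTL 2 it was 0.94, less than 2-fold.

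The other probe sets of Slc1a3 did not show this rise. The brighter of them read 3.30, 2.97 and 3.44 in DHT and 2.64, 3.25 and 7.32 in CTL, with CTL 3 far above the other 5 animals. Its difference was -1.17 (SE 1.29, adjusted p 0.896, limma), and against CTL 1 and CTL 2 it was 0.29. The last probe set was near background on all 6 arrays. With the mean of its 3 probe sets as the value of the gene, Slc1a3 differed by -0.022 (adjusted p 0.981, limma). The call was also lost when any 1 of the 6 animals was left out, with log2 differences of 0.94 to 1.26. Without CTL 3 the adjusted p was 0.0243 by limma, but the fold was under 2.

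**Figure D2:**
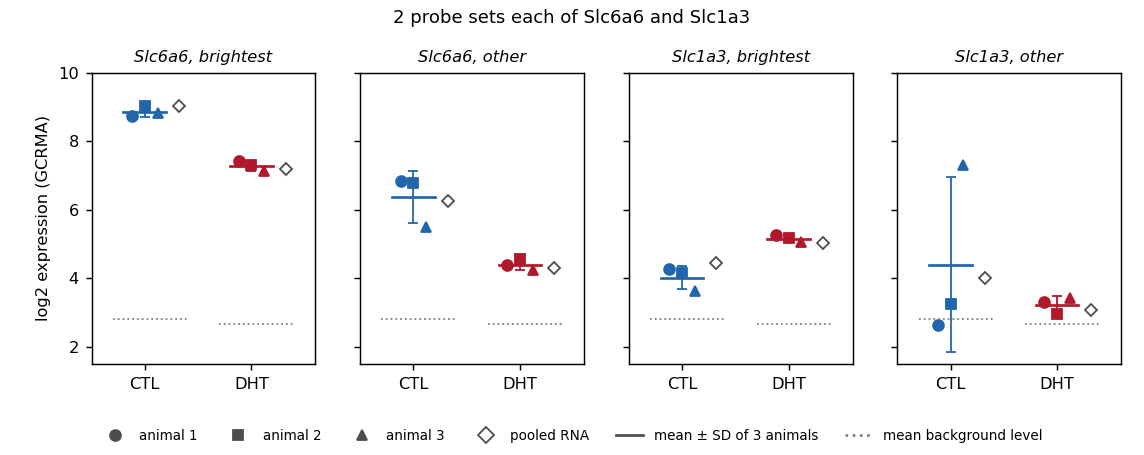
Log2 expression (GCRMA) of Slc6a6 and Slc1a3 by the probe set that stands for the gene and by the next one, in CTL (blue) and DHT (red) animals, with bars for the mean ± SD of 3 animals, open diamonds for the pooled arrays and dotted lines for the mean background level. Both probe sets of Slc6a6 are lower in all DHT animals, while the other probe set of Slc1a3 is set apart by a CTL 3 value of 7.32.

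The remaining Slc1 members were not called. Slc1a5, which exchanges glutamine and other neutral amino acids, read 3.17, 2.90 and 2.91 in DHT and 3.25, 3.12 and 3.42 in CTL, a difference of -0.27 (interval -0.58 to 0.034). Its relative Slc1a4 read 3.42, 3.29 and 4.42 in DHT and 3.20, 3.21 and 3.41 in CTL, and the DHT 3 animal alone stood above the rest. Both stayed above the receptor background on all 6 arrays, but at a higher level, 1 log2 unit above the mode of the array, Slc1a5 was near background on all 6. The neuronal and glial glutamate carriers Slc1a1, Slc1a2 and Slc1a6 were near background throughout.

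Slc7a5 and Slc7a8 are the light chains of the exchangers for leucine and other large neutral amino acids, and Slc3a2 is their heavy chain. Slc7a8 read 7.58, 7.86 and 7.42 in DHT and 6.43, 6.93 and 6.18 in CTL, with no overlap. Its log2 difference was 1.11 (SE 0.23, adjusted p 0.136, limma), which missed the false discovery rate of 10%, although its unadjusted p was 0.00424. Against CTL 1 and CTL 2 it was 0.94 and against CTL 3 it was 1.44. Slc7a5 read 4.87, 4.54 and 4.77 in DHT and 4.06, 3.71 and 2.81 in CTL, and again the groups did not overlap. The CTL 3 value of Slc7a5 was near background, and the log2 difference of 1.20 (SE 0.34, adjusted p 0.248, limma) became 0.84 against CTL 1 and CTL 2 and 1.91 against CTL 3. Both light chains were thus higher in every DHT animal than in every CTL animal without being called.

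The heavy chain Slc3a2 showed no such separation. It read 9.25, 9.43 and 8.79 in DHT and 9.41, 9.60 and 8.30 in CTL, a log2 difference of 0.055 (SE 0.40, interval -0.95 to 1.06). Against CTL 1 and CTL 2 it was -0.35, and against CTL 3 it was 0.86, so the sign turned with the control animal. The difference between the chains was not tested. With the Gapdh difference as a covariate Slc7a5 at 1.84 (adjusted p 0.0161), Slc7a8 at 1.47 (0.0176) and the Slc38 member Slc38a10 were called higher by limma, in a fit that called 3747 probe sets in all. In that fit Slc3a2 stood at 0.90 (adjusted p 0.0222, limma), in the direction of the light chains and past the false discovery rate but under the 2-fold limit. Only CTL 3 shared the range of the Gapdh difference with the DHT animals. The estimates of this fit for Slc7a5, Slc7a8 and Slc3a2 thus lie near their differences against CTL 3 alone.

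Other partners of the heavy chains showed no call. Slc7a6 and Slc7a7 exchange dibasic for neutral amino acids, and they differed by 0.015 (interval -0.47 to 0.50) and -0.071 (interval -0.86 to 0.72). Slc7a11, which brings in cystine for glutathione synthesis, was near background in all 3 CTL animals and in 1 DHT animal, at 2.55 to 2.86 in all, so no fold is given. Slc3a1, the heavy chain of the renal cystine carrier, read 2.91 to 3.15 in DHT and 3.16, 3.78 and 2.49 in CTL, while its light chain Slc7a9 was near background on all 6 arrays. Slc7a10, a carrier of small neutral amino acids, was near background as well. Slc7a6os, the neighbour of Slc7a6, read 5.34, 5.29 and 5.38 in DHT and 5.15, 5.06 and 4.37 in CTL, higher in all DHT animals with an adjusted p of 0.506 by limma.

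Of the cationic amino acid branch, which works without a heavy chain, Slc7a4 was lower in DHT. It read 2.87, 2.79 and 2.88 in the DHT animals, 3.83, 5.15 and 3.66 in the CTL animals, and 2.58 and 4.83 on the pooled arrays. The DHT values lay close above the receptor background of 2.65 to 2.67, and the groups did not overlap. The log2 difference was -1.36 (SE 0.42) with an adjusted p of 0.282 by limma, and it ranged from -0.90 without CTL 2 to -1.64 without CTL 3. Slc7a4 was called lower by limma with the pooled arrays as replicate 4 (-1.59, adjusted p 0.0424) and with array quality weights (-1.56, adjusted p 0.0474). Slc7a1, the main carrier of arginine and lysine, read 4.88, 4.63 and 4.20 in DHT and 5.48, 3.91 and 3.89 in CTL, and its difference of 0.14 had an interval of -1.12 to 1.40. Slc7a2 and Slc7a3 were near background on all 6 arrays.

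The Slc38 family had 7 of its 9 members with a positive log2 difference, and 0 called, where 6738 of all 14217 genes were positive. Its median was 0.21, beside -0.012 over all genes and 0.095 over genes above background on at least 1 array. It was 0.092 against CTL 1 and CTL 2 and 0.53 against CTL 3. Slc38a9 sits in the lysosome and reports arginine to mTORC1. It read 3.88, 3.84 and 4.17 in DHT and 3.17, 3.37 and 3.16 in CTL, with no overlap. Its difference was 0.73 (SE 0.12), a 1.65-fold higher level with an adjusted p of 0.0933 by limma, which passed the false discovery rate but not the fold limit. The difference was 0.69 against CTL 1 and CTL 2 and 0.80 against CTL 3, so the choice of control animals moved it little. Its pass was less stable than its size. The adjusted p by limma was 0.121 to 0.293 with the dim filter, median scaling, quantile normalization, the replicate block or the trend, and 0.154 to 0.315 without CTL 1, without CTL 2 or without any of the DHT animals. At a false discovery rate of 10% with no fold limit, 0.483% of all probe sets were lower and 1.39% higher, and the members that passed were Slc6a6, Slc1a3 and Slc38a9.

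Slc38a2, which takes up small neutral amino acids with sodium, read 8.89, 9.0 and 9.36 in DHT and 8.66, 7.99 and 7.40 in CTL. The groups did not overlap, but CTL 1 lay close below DHT 1. The difference was 1.06 (SE 0.35, adjusted p 0.319, limma), at 0.76 against CTL 1 and CTL 2 and 1.68 against CTL 3. Its relative Slc38a1 overlapped widely, at 5.05, 4.94 and 4.17 in DHT and 4.07, 5.48 and 2.98 in CTL. Its interval of -1.19 to 2.27 was wide, and the difference was -0.056 against CTL 1 and CTL 2. Slc38a4 read 3.77, 3.64 and 3.87 in DHT and 3.51, 3.46 and 3.70 in CTL, a difference of 0.20 (adjusted p 0.542, limma). Slc38a6 was higher in all DHT animals, at 3.35 to 3.76 against 3.01 to 3.24, with a difference of 0.43 (adjusted p 0.277, limma).

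Slc43a2, a carrier of branched-chain and aromatic amino acids, read 3.09, 3.19 and 2.85 in DHT and 3.19, 3.95 and 3.65 in CTL. The DHT 2 and CTL 1 animals overlapped narrowly, and the difference was -0.55 (SE 0.22, adjusted p 0.422, limma). It was -0.53 against CTL 1 and CTL 2 and -0.61 against CTL 3. Slc43a1 stayed at 2.72 to 2.77 on the 6 arrays, near background on 1 of them.

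**Figure D3:**
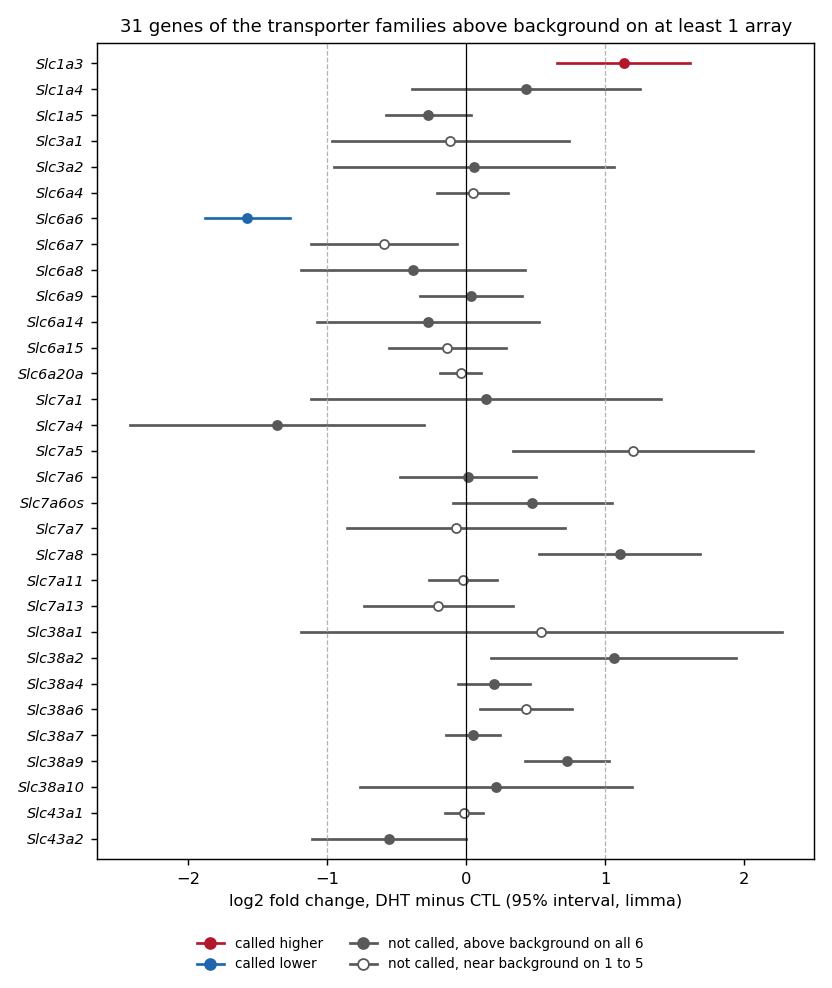
Log2 fold change (DHT minus CTL, n = 3 per group) with its 95% interval from limma for the 31 members above background on at least 1 of the 6 arrays; dashed lines mark a 2-fold change, and open circles are members near background on 1 to 5 arrays. Slc6a6 is the 1 member whose whole interval lies beyond 2-fold, and 15 members that were not called have an interval that reaches 2-fold.

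For the 29 members that were above background on at least 1 array and were not called, the 95% interval of the log2 difference lay within 2-fold in 14 and reached 2-fold in 15. Of these 29, 17 were above background on all 6 arrays, and the interval reached 2-fold in 12 of the 17. For members near background on some arrays, an interval within 2-fold does not show that they were unchanged. Slc7a6, Slc38a4, Slc38a7, Slc6a9 and Slc1a5 were among the 14 within 2-fold. Among the 15, the intervals of Slc3a2, Slc7a1, Slc38a1, Slc38a10 and Slc6a8 reached 2-fold in 1 direction or in both.

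Of the 53 members 22 were near background on all 6 arrays, against 21.4% of all genes and 32% of all probe sets, 19 were above it on all 6 and 12 on some. At the higher level, 1 log2 unit above the mode, 31 were near background on all 6. The 22 comprised all 3 Slc36 members, Slc36a1, Slc36a2 and Slc36a3, as well as 8 of the 16 Slc6, 6 of the 15 Slc7, 3 of the 6 Slc1 and 2 of the 9 Slc38 members. Among them were the carriers of noradrenaline and dopamine (Slc6a2, Slc6a3), of glycine in neurons (Slc6a5) and of GABA (Slc6a11, Slc6a13), the glutamine carriers Slc38a3 and Slc38a5, and the renal carriers Slc6a18 and Slc7a9. No fold is given for these genes.

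All 22 of these members had their highest value on CTL 3. Their log2 differences were all negative, from -0.12 to -0.0063, and all 22 were positive against CTL 1 and CTL 2, with adjusted p of 0.896 or more by limma. Of the 36 members with a negative difference, 22 were these dim genes. Among the 31 members above background on at least 1 array, 14 were negative and 17 positive, with a median of 0.034, beside 0.095 for all genes above background on at least 1 array.

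**Figure D4:**
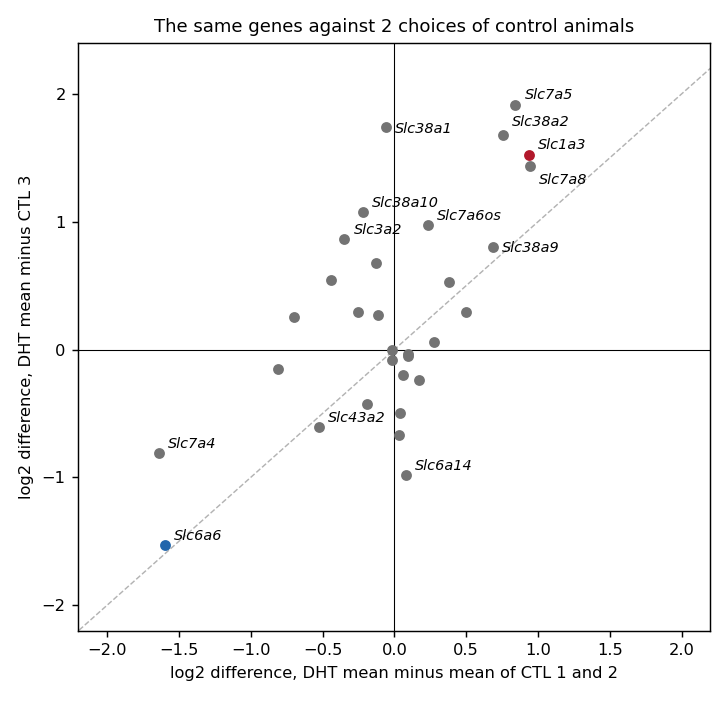
Log2 difference of the DHT mean from CTL 3 (vertical axis) against its difference from the mean of CTL 1 and CTL 2 (horizontal axis) for the 31 members above background on at least 1 array; red and blue mark the members called higher and lower, and the dashed line marks equal values. Slc6a6 lies near the line at -1.60 and -1.53, Slc38a9 near it at 0.69 and 0.80, and Slc38a1 far from it at -0.056 and 1.74.

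Levels of markers of some other cell types also differed between the groups. The granulosa list, with Inhba called higher, had a log2 summed level of 13.11 to 13.36 in DHT and 11.74 to 12.39 in CTL, and 8 of its 9 measured genes were positive. All 9 granulosa genes were above background on all 6 arrays. The corpus luteum list was negative in 7 of 7 genes, at 10.03 to 11.72 against 12.59 to 14.31, and the macrophage list in 14 of 15, at 8.69 to 9.0 against 9.23 to 10.47, with Ctss called lower. The part of these cells in the levels of Slc6a6, Slc1a3 and the other members was not tested. For Slc1a3, a marker of glia, the neuron and glia list had 6 of 10 genes near background on all 6 arrays, Gfap and Olig2 among them, and summed levels of 7.64 to 8.21 in DHT and 8.13 to 8.84 in CTL, which overlapped. Of its 10 genes 9 were negative, but 7 had their highest value on CTL 3. The median of the list was 0.022 against CTL 1 and CTL 2 and -0.22 against CTL 3. Rbfox3, a neuronal splicing factor, was called lower at -3.99 (adjusted p 0.0949, limma). The pancreatic acinar list summed to 9.24 to 10.84 in DHT and 6.01 to 6.34 in CTL, with Cpa1 and Ctrb1 called higher. Its genes were not higher as a whole. Of its 8 genes 4 were negative and 4 positive, at a median of -0.0042, and Prss1, Cela1, Pnlip and Cel were near background. Stroma and smooth muscle genes were positive in 11 of 11 with a median of 0.74, but the median was -0.15 against CTL 1 and CTL 2 and 1.94 against CTL 3, and the summed levels of 12.92 to 13.20 in DHT and 10.82 to 13.11 in CTL overlapped. The theca and interstitial list summed to 12.56 to 13.35 in DHT and 13.64 to 14.50 in CTL, lower in every DHT animal, but its genes were divided. Its median log2 difference was -0.25, with group means at least 2-fold lower in 2 genes and higher in 3. Of its 7 genes 4 were negative, with Star at -3.75 (adjusted p 0.210, limma), and 3 positive, with Insl3 called higher at 3.11 (adjusted p 0.0575, limma). Of 6 oocyte genes Zp2 was called higher and 3, Bmp15, Zp1 and Kit, were near background. Endothelial genes were negative in 7 of 10 and epithelial genes positive in 5 of 8, where 7479 of all 14217 genes were negative and 6738 positive. Red blood cell genes were negative in 3 of 4, with 2 of the 4 near background on all 6 arrays. The summed levels of the endothelial, epithelial and red blood cell lists overlapped between the groups, at 7.03 to 7.84 in DHT and 4.98 to 8.08 in CTL for red blood cells. The oocyte list summed to 6.20 to 6.66 in DHT and 5.46 to 5.91 in CTL, higher in every DHT animal, although 4 of its 6 genes were negative.

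Other genes of amino acid handling were taken from 7 lists, of which 114 of 122 genes were measured, and 0 were called in either direction by limma, with 14 of the 114 at an unadjusted p under 0.05, against 11.9% of all probe sets. At a false discovery rate of 10% with no fold limit, 2 were lower and 1 was higher, against 0.483% and 1.39% of all probe sets. Besides Cdo1 these were Aars1, the tRNA synthetase for alanine, at 6.46, 6.43 and 6.25 in DHT and 6.91, 6.93 and 6.97 in CTL (difference -0.56, adjusted p 0.0721, limma), and Slc25a22, a mitochondrial glutamate carrier, at 4.73, 4.54 and 4.71 in DHT and 5.51, 5.28 and 5.23 in CTL (difference -0.68, adjusted p 0.0826, limma). All 3 genes had no overlap between the groups, which is no separate result, as they were picked by their adjusted p.

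The list of the amino acid response, which holds Atf4, the factor that raises carriers and synthetases when amino acids run short, with its targets and partners, had 16 of 24 genes negative and a median of -0.22. Asns, which makes asparagine and is the textbook target of this response, read 3.26, 3.40 and 3.00 in DHT and 4.29, 5.26 and 3.82 in CTL, with an adjusted p of 0.299 by limma. Mthfd2, an enzyme of mitochondrial folate metabolism, read 3.99, 4.74 and 2.66 in DHT and 6.68, 7.62 and 5.97 in CTL, a difference of -2.96 (SE 0.68, adjusted p 0.165, limma). Both were lower in all DHT animals without being called, while the median of the list was -0.44 against CTL 1 and CTL 2 and 0.14 against CTL 3.

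The list of amino acid sensing by mTORC1, the pathway in which Slc38a9 acts, had 15 of 21 genes positive and a median of 0.19. Fnip1 read 6.38, 6.85 and 6.61 in DHT and 6.0, 5.95 and 5.63 in CTL, a difference of 0.75 (adjusted p 0.150, limma), and its partner Flcn differed by 0.47 (adjusted p 0.274, limma). The median of this list was -0.063 against CTL 1 and CTL 2 and 0.84 against CTL 3, so its sign turned with the control animal.

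The remaining lists had no call and few members with a small p. Genes of cystine use and glutathione synthesis had 9 of 12 negative and a median of -0.24, with Gss, the glutathione synthetase, at 4.45, 4.38 and 4.22 in DHT and 5.18, 5.22 and 4.63 in CTL (adjusted p 0.240, limma). The medians were -0.082 for 13 glutamate and glutamine enzymes, -0.025 for 12 branched-chain and aromatic enzymes, 0.050 for 16 arginine, polyamine, taurine and creatine enzymes and -0.040 for 16 other carriers. Of the 114 genes 19 were near background on all 6 arrays, among them the transporters of glutamate and GABA into synaptic vesicles, Slc17a6, Slc17a7 and Slc32a1.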

How the data were processed

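Ovarian RNA of 3 DHT and 3 CTL rats and of 1 pool per group was read on 8 Affymetrix rat arrays. The authors' deposited table holds log2 levels, 1 per probe set, made by them with GCRMA. Their genome build is not given in the sources used here. Gene symbols came from the platform annotation. The 57 Affymetrix controls were left out, and 31042 probe sets were tested in limma 3.58.1 (R 4.3.3; lmFit, eBayes), 3 against 3, with Benjamini-Hochberg adjustment over all of them. Adjusted p-values are from this fit unless a setting is named. The procedure was also tested on simulated data. The number of arrays limits the precision.

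Replicates are separate animals, and replicate 4 of each group, the pool of the same animals, was used only in an alternative. Near background means at or below the 95th percentile of receptor probe sets on an array. A gene near background in all animals of 1 group has no measured fold there, at most a bound.

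Members were named when called, when the group means differed 2-fold above background, when brightest or of smallest p in a family, or for a known role, which gave 31. Slc1a6, Slc6a2, Slc6a3, Slc6a5, Slc6a7, Slc6a11, Slc6a13, Slc6a14, Slc6a18, Slc7a6os, Slc36a3, Slc38a5, Slc38a6, Slc38a7 and Slc38a10 are named beside them and were chosen after their values were seen. The members, the 18 gene lists and the tests were chosen with earlier results of these data known. Alternatives were the pooled arrays as replicate 4, the replicate number as a block, quantile and median scaling, a filter on dim probe sets, a trend of the variance with the mean, quality weights (whose estimation gave a convergence warning), the Gapdh difference as a covariate, a gene's probe sets averaged, each array left out and other call limits. Sequences are from RefSeq on GRCr8, and 12 members had no entry.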

Additional observations from a re-analysis of the deposited data

How the results depend on the processing

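The number of arrays and the CTL 3 array limit these results. The fit with the Gapdh covariate in effect sets DHT mainly against CTL 3. Members called lower were 2 with array quality weights and with the pooled arrays, and 0 with the trend, quantile normalization and the replicate block, and 0 to 1 when an array was left out. Members called higher were 4 with the Gapdh covariate, 2 with no fold limit or an unadjusted p, 1 with the pooled arrays (Slc7a5 in place of Slc1a3), 0 in the other settings but the one without dim probe sets, and 0 when any array was left out. Over all probe sets, 320 were called, beside 3747 with the Gapdh covariate, 1874 with array weights, 966 with the pooled arrays, 176 after quantile normalization, 61 with the trend, 581 with no fold limit, 28 at a false discovery rate of 5%, 660 at an unadjusted p of 0.01, and 0 to 1622 with an array left out. With the replicate block, limma called 0, with 3817 at an unadjusted p under 0.05. The labels do not say whether equal replicate numbers pair the animals. The correlations of the deviations of same-numbered animals from their group means were -0.074, 0.44 and 0.34, which cannot settle it. With each DHT animal left out limma called 0 probe sets, with 2529 to 2623 at an unadjusted p under 0.05. The median of the members ran from -0.052 to 0.021 with an array left out. The cause of these shifts was not tested.

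Signs turned for Slc1a3 and for members that were not called. Values of Slc6a15 and Slc7a11 lie near background in all animals of 1 group and have no order. With the Gapdh covariate Slc3a1 was at 0.51, Slc6a8 at 0.24, Slc6a9 at -0.24 and Slc7a7 at 0.30. With array weights Slc3a2 was at -0.25, Slc6a15 at 0.039, Slc7a1 at -0.0080, Slc7a6 at -0.017 and Slc7a11 at 0.054. With the mean of probe sets Slc1a3 was at -0.022 and Slc7a1 at -0.0071. With median scaling Slc7a11 was at 0.031 and Slc43a1 at 0.041, with the pooled arrays Slc3a2 at -0.066 and Slc7a6 at -0.025, and with quantile normalization Slc3a2 at -0.016, Slc7a6 at -0.14, Slc7a11 at 0.034 and Slc43a1 at 0.029. Leaving out 1 array gave -0.44 to 0.20 for Slc3a1, -0.35 to 0.30 for Slc3a2, -0.24 to 0.042 for Slc6a15, -0.075 to 0.17 for Slc6a9, -0.13 to 0.67 for Slc7a1, -0.095 to 0.063 for Slc7a11, -0.11 to 0.18 for Slc7a6, -0.25 to 0.28 for Slc7a7 and -0.056 to 1.19 for Slc38a1.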
